A study of Mus musculus with 4 samples.

Results

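DNA methylation was described at 6 genes that set whether a lymphocyte lives or dies, the long noncoding RNA gene Morrbid and the protein-coding genes Bcl2l11, Bcl2, Bcl2l1, Mcl1 and Fas, of 49943 genes in the RefSeq table of the mouse assembly GRCm38.p6 (mm10). They were chosen by name, with earlier results of these data known, and their values are therefore given as a description. Each was taken with its RefSeq bounds and 5 kb on each side, which held 6558 of the 25373696 nuclear cytosine positions listed. The study measured methylation by whole-genome bisulfite sequencing, in which unmethylated cytosines are read as thymine and methylated ones stay cytosine. Its 4 groups were Treg from OX40L-JAG1 mice, Teff from OX40L-JAG1 mice, Treg from PBS mice and Teff from PBS mice, each with 1 library. All mice were NOD, a strain that becomes diabetic by autoimmunity. They were 10 weeks old, and had been given either OX40L with Jagged-1 proteins or PBS weekly, 3 times, from the age of 6 weeks. OX40L binds the costimulatory receptor OX40, and Jagged-1 binds Notch receptors. Spleen cells were sorted by flow cytometry as CD4+CD25hi (Treg, regulatory T cells) and CD4+CD25- (Teff, effector T cells). The gate rests on CD25 and not on Foxp3 protein, CD4+CD25- cells include naive T cells, and the labels do not say how many mice a library pooled. With 1 library a group there was no spread between animals to measure, so each test compared 2 libraries and not 2 conditions.

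Bcl2l11 encodes Bim, a BH3-only protein that starts mitochondrial apoptosis and removes self-reactive thymocytes and T cells at the end of an immune response. BCL-2, BCL-XL (from Bcl2l1) and MCL-1 bind Bim and hold it in check, while Fas is a death receptor on the cell surface that activates caspases when Fas ligand binds. Morrbid lies downstream of Bcl2l11 on the same chromosome, and its RNA was described in mouse myeloid cells and CD8 T cells as a repressor of Bcl2l11 in cis. Cytosine methylation in mammals sits mostly at CpG pairs, is high over most of the genome and is usually low at active promoters and enhancers.

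Start-site sequences are shown for the neighbours Bcl2l11 and Morrbid and for the death receptor Fas, because start sites are where low methylation usually accompanies an active gene, and all of them were nearly free of it where they were read. The letters are from RefSeq (GRCm38.p6) and run 5′ to 3′ on the strand of the gene, and capitals mark the CpG pairs that were read at least 5 times in at least 1 library. Bcl2l11 is on the plus strand and its stretch is chr2:128125788-128126037, with 24 CpG pairs of which 9 were read. Morrbid is on the minus strand, chr2:128429302-128429601, with all of its 8 CpG pairs read. Fas is on the plus strand, chr19:34290409-34290646, with all of its 11 CpG pairs read.
Bcl2l11: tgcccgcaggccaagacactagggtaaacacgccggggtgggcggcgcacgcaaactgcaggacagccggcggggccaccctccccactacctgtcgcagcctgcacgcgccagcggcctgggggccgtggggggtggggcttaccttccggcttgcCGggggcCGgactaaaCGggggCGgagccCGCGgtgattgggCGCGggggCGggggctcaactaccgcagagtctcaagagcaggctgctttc
Morrbid: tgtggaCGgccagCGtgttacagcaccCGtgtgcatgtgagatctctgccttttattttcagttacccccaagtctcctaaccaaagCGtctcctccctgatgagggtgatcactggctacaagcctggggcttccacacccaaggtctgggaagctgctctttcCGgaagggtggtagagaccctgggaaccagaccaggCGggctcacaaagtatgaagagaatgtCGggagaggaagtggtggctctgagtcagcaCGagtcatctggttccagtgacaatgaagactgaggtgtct
Fas: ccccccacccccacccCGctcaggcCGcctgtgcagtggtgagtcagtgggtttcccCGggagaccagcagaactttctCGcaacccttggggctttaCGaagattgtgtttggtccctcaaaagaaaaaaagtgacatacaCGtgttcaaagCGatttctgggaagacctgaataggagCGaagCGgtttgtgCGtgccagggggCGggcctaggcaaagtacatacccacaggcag

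Promoters, taken as the 300 bases from 250 before to 50 after each RefSeq start site, held almost no methylated reads in any library that covered them. Summed over the 4 libraries, 1 of 171 reads was methylated at Morrbid, 1 of 181 at Fas and 0 of 115 at Mcl1. Bcl2 had 0 of 77, all from OX40L-JAG1 Teff, and Bcl2l11 had 0 of 75 at its first start site and 0 of 30 at its second. Of the 3 Bcl2l1 start sites, 2 gave 0 of 85 and 1 of 191, and the third, which has a single CpG, gave 5 of 6 in PBS Teff, the library that covered it. Coverage there was thin and uneven. At Morrbid, OX40L-JAG1 Treg had 10 reads, OX40L-JAG1 Teff 33, PBS Treg 29 and PBS Teff 99, and at Fas OX40L-JAG1 Treg had 16, OX40L-JAG1 Teff 0, PBS Treg 101 and PBS Teff 64. The Morrbid promoter is also poor in CpG, with 2.67 CpG pairs per 100 bases, against 14.7 at Bcl2, 11 at Mcl1 and 9.0 at the first Bcl2l11 start site.

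Depth set what could be seen. Of the 6558 listed positions, 658 (10.0%) had 5 or more reads in all 4 libraries, and 957 more reached that minimum in 3 of them. A lowest count of exactly 5 was found at 227 of the 658. Over the whole genome the positions kept in this way had a median of 9 reads in OX40L-JAG1 Treg, 11 in OX40L-JAG1 Teff, 10 in PBS Treg and 14 in PBS Teff. The share of methylated reads over them was 82.2% in OX40L-JAG1 Treg, 81.6% in OX40L-JAG1 Teff, 84.9% in PBS Treg and 85.2% in PBS Teff. The median window, a fixed stretch of 1 kb with at least 5 kept positions, differed by -2.14 points for OX40L-JAG1 Treg minus PBS Treg and by -2.82 points for OX40L-JAG1 Teff minus PBS Teff, and by 0.43 and -0.16 points for Treg minus Teff in OX40L-JAG1 and in PBS mice. The cell labels were checked on 6 Treg marker loci (Foxp3, Il2ra, Ikzf2, Ikzf4, Ctla4 and Tigit), and all 6 were less methylated in Treg than in Teff in both pairs, with median differences of -15.9 points in OX40L-JAG1 and -17.5 points in PBS mice. The same 6 loci were lower in OX40L-JAG1 than in PBS libraries of both cell types, with medians of -4.96 points in Treg and -3.88 points in Teff. Their levels ran from 23.1 to 81.6% in OX40L-JAG1 Treg, 63.1 to 88.2% in OX40L-JAG1 Teff, 34.6 to 85.1% in PBS Treg and 74.3 to 91.7% in PBS Teff. For Treg minus Teff, markers of other cell types had medians of -0.49 and -1.47 points for 5 B cell loci, 1.40 and 0.83 points for 4 CD8 T and NK cell loci and 1.81 and 0.14 points for 5 myeloid loci, in OX40L-JAG1 and in PBS mice. For OX40L-JAG1 minus PBS the medians of these 3 lists lay between -1.39 and -5.69 points. Most T cell loci moved the other way. For 4 pan T cell loci (Cd3e, Cd3d, Cd4 and Cd5), the medians were 7.56 and 8.45 points for Treg minus Teff in OX40L-JAG1 and in PBS mice, and 2.84 and 3.68 points for OX40L-JAG1 minus PBS in Treg and in Teff. Cd5 went against these medians. It was -11.6 and -15.3 points for Treg minus Teff, and -2.50 and -6.27 points for OX40L-JAG1 minus PBS, in the same order. Of the loci that mark naive T cells, OX40L-JAG1 Treg minus PBS Treg was 11.3 points at Tcf7, 2.54 at Lef1, 7.13 at Satb1 and 1.30 at Ccr7. For OX40L-JAG1 Teff minus PBS Teff they were 9.31, 14.1, 8.29 and -6.70 points in that order. For Treg minus Teff, they were 20.4, 11.9, 11 and 1.05 points in OX40L-JAG1 mice and 18.5, 23.5, 12.1 and -6.95 points in PBS mice. These marker values move with the comparisons below, and their part in the results was not tested. In such sorted populations a different share of cells of a type and a different level per cell cannot be told apart.

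Of the 314517 windows of the genome, 35 lay at these genes, 10 at Morrbid, 2 at Bcl2l11, 12 at Bcl2, 5 at Bcl2l1, 1 at Mcl1 and 5 at Fas. In 17 of the 35, at least 80% of reads were methylated in all 4 libraries, and in 2 fewer than 20% were. A window was called where a two-sided Fisher's exact test gave an adjusted p below 0.05 and the levels differed by 20 points or more. OX40L-JAG1 Treg was called lower than PBS Treg in 1 window and higher in 0, where 0.0811% of all windows were called lower and 0.0194% higher. OX40L-JAG1 Teff was called lower than PBS Teff in 4 windows and higher in 1, against 0.469% and 0.0881% of all windows. In OX40L-JAG1 mice, Treg was called lower than Teff in 2 windows and higher in 0, against 0.0588% and 0.0547% of all windows. In PBS mice, Treg was called lower than Teff in 2 windows and higher in 0, against 0.165% and 0.115% of all windows. These contrasts were known when the genes were chosen, so nothing is read from the counts. The median difference of the 35 windows was 0.00, -0.29, 0.95 and -0.13 points in the same order of comparisons. The calls lay in 6 windows, 3 of Morrbid and 1 each of Bcl2, Bcl2l1 and Fas.

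**Figure D1:**
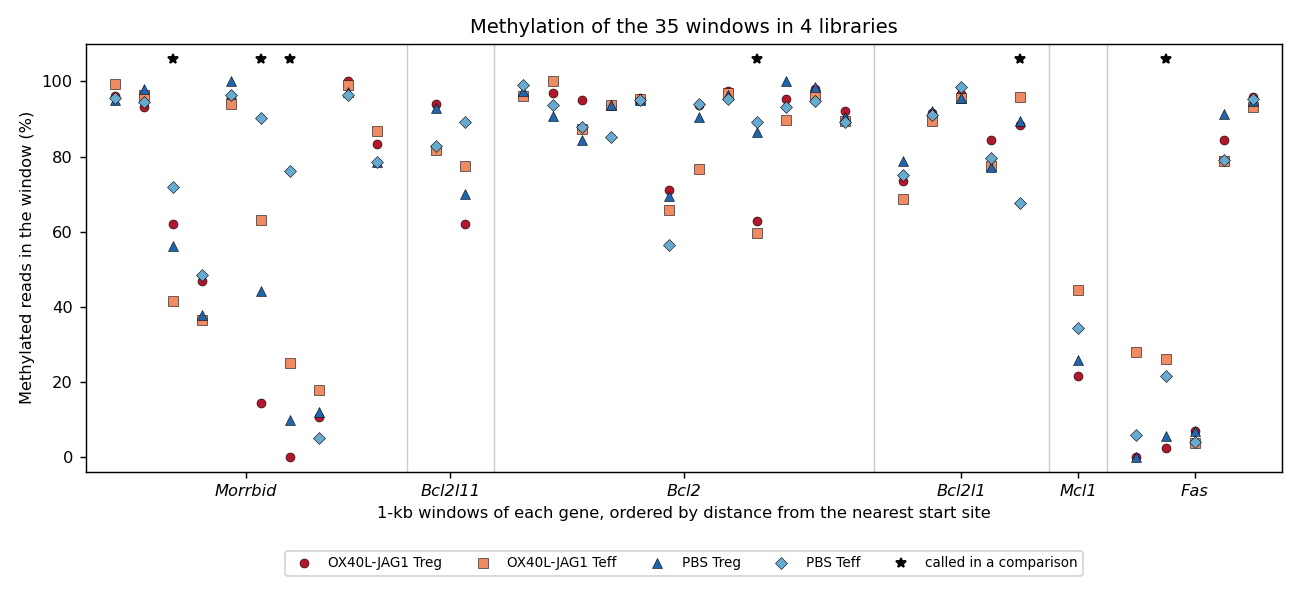
Share of methylated reads (%, vertical axis) in each of the 35 windows of 1 kb, grouped by gene and ordered by distance from the nearest start site, with 1 symbol per library and a star over each window called in any of the 4 comparisons. Most windows of Bcl2 sit near the top in all libraries, the Morrbid window 49.9 kb into the gene spreads from 14.2% in OX40L-JAG1 Treg to 90.3% in PBS Teff, and the Fas window 8.8 kb after the start site stays between 3.52 and 6.9%.

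Morrbid, the lncRNA gene, showed the widest spread. Its window chr2:128379001-128380000, 49.9 kb into the 131-kb gene, had 14.2% methylated reads in OX40L-JAG1 Treg (95% Wilson interval 9.47 to 20.7, 148 reads), 63.1% in OX40L-JAG1 Teff (55.4 to 70.2, 160 reads), 44.1% in PBS Treg (37.8 to 50.6, 229 reads) and 90.3% in PBS Teff (86.4 to 93.2, 289 reads). No pair of these intervals overlapped, and the 4 libraries stood in the order OX40L-JAG1 Treg, PBS Treg, OX40L-JAG1 Teff, PBS Teff from low to high. All intervals cover counting error only, since reads at neighbouring cytosines are not independent. The difference was -29.9 points for OX40L-JAG1 Treg minus PBS Treg (95% Newcombe interval -37.9 to -20.9). It was -27.2 points for OX40L-JAG1 Teff minus PBS Teff (-35.4 to -19.1). Treg minus Teff came to -48.9 points in OX40L-JAG1 mice (-57.4 to -38.8) and to -46.2 points in PBS mice (-53.1 to -38.6). All 4 comparisons were called lower, and in the genome 4 windows were called lower in all 4, this one and windows at Pnkd, Gpr55 and Cd83, while 4 others were called higher in all 4. With all read counts divided by 3, or with a call size of 30 points, this window lost its calls in both treatment comparisons. The difference of the 2 treatment differences, Treg minus Teff, was -2.73 points and was not called.

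The 12 kept positions of this Morrbid window lie from 49.677 to 50.206 kb into the gene. Neighbouring ones can share reads, so they are not independent observations. Of the 12 positions, 11 were lower in OX40L-JAG1 Treg than in PBS Treg and 0 were higher, and all 12 were lower in the other 3 comparisons. At position 128379271, for example, 0 of 16 reads were methylated in OX40L-JAG1 Treg, 14 of 26 in OX40L-JAG1 Teff, 12 of 35 in PBS Treg and 29 of 32 in PBS Teff. In the comparison of PBS Treg with PBS Teff, this position, 128379384, 128381229 and 128381478 were the 4 single positions called, all lower in Treg, out of 658 tested at the 6 genes, where 0.0169% of all positions were called in either direction. No single position of these genes was called in the other 3 comparisons, where 0.000355% (OX40L-JAG1 Treg minus PBS Treg), 0.0285% (OX40L-JAG1 Teff minus PBS Teff) and 0.00221% (OX40L-JAG1 Treg minus OX40L-JAG1 Teff) of all positions were called. At 128381478 the levels were 28.6% in OX40L-JAG1 Treg, 58.3% in OX40L-JAG1 Teff, 29.2% in PBS Treg and 87.8% in PBS Teff, so that the 2 Treg libraries lay close together there.

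The neighbouring window chr2:128378001-128379000 had 0% in OX40L-JAG1 Treg (0 of 41 reads, upper bound 8.57), 25.0% in OX40L-JAG1 Teff (60 reads), 9.84% in PBS Treg (61 reads) and 76.1% in PBS Teff (71 reads). PBS Teff stood far above the other 3. The difference was -51.1 points for OX40L-JAG1 Teff minus PBS Teff (-63.5 to -34.5) and -66.2 points for PBS Treg minus PBS Teff (-76.1 to -51.3), both called. OX40L-JAG1 Treg minus PBS Treg was -9.84 points (-19.8 to 0.21) and OX40L-JAG1 Treg minus OX40L-JAG1 Teff was -25.0 points (-37.2 to -12.4), neither called. The difference of the 2 treatment differences, Treg minus Teff, was 41.2 points in this window and was not called.

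Positions read at least 5 times in just the 2 libraries compared, here called pairwise positions, keep more of each gene. With them 1 of 64 windows of the 6 genes was called lower for OX40L-JAG1 Treg minus PBS Treg (0.0602% of all such windows), 11 of 198 for OX40L-JAG1 Teff minus PBS Teff (0.361%), 3 of 76 for OX40L-JAG1 Treg minus OX40L-JAG1 Teff (0.0465%) and 7 of 153 for PBS Treg minus PBS Teff (0.151%). No window of these genes was called higher with them, where 0.0147%, 0.0566%, 0.0387% and 0.0812% of all such windows were, in the same order. In Morrbid the calls formed a stretch of 5 neighbouring windows, chr2:128377001-128382000, from 47.4 to 52.4 kb into Morrbid and 251 kb from the first Bcl2l11 start site. All 5 were called lower for OX40L-JAG1 Teff minus PBS Teff, with differences of -24.7 to -45.1 points. All 5 were also called lower for PBS Treg minus PBS Teff, with differences of -44.6 to -71.5 points. In OX40L-JAG1 mice, 2 of the 5 were called lower in Treg than in Teff, and 1 was called lower in OX40L-JAG1 Treg than in PBS Treg.

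Over the positions each library covered in these 5 kb, 14.5% of 393 reads were methylated in OX40L-JAG1 Treg, 41.9% of 742 in OX40L-JAG1 Teff, 33.1% of 614 in PBS Treg and 80.6% of 931 in PBS Teff. OX40L-JAG1 Treg was again the lowest library and PBS Teff the highest. The libraries cover different positions in those totals, 45 in OX40L-JAG1 Treg, 77 in OX40L-JAG1 Teff, 55 in PBS Treg and 74 in PBS Teff. PBS Teff was not evenly high in the stretch, with 52.7% of 91 reads in chr2:128380001-128381000. At the positions shared by a pair, PBS Treg was below PBS Teff at 44 of 44. OX40L-JAG1 Teff was lower than PBS Teff at 53 of 56 and higher at 1, OX40L-JAG1 Treg was lower than OX40L-JAG1 Teff at 28 of 35 and higher at 4, and OX40L-JAG1 Treg was lower than PBS Treg at 19 of 28 and higher at 2. Pooled over those shared positions the differences were -51.1 points (-55.6 to -46.2), -35.5 points (-40.1 to -30.7), -35.7 points (-41.6 to -29.3) and -21.6 points (-27.3 to -15.4) in the order just given. On the side of the start site the next window, chr2:128382001-128383000, had 32% of 50 reads in OX40L-JAG1 Teff, 53.3% of 15 in PBS Treg and 86.2% of 87 in PBS Teff, with 0 listed reads in OX40L-JAG1 Treg and too few shared positions for a test. These levels come from different positions, and the 2 that both Teff libraries cover had equal levels, 20% and 100%. Methylation was high in all libraries 1 window further, where chr2:128383001-128384000 had 95.5% in OX40L-JAG1 Treg, 94.0% in OX40L-JAG1 Teff, 100% in PBS Treg and 96.4% in PBS Teff. On the far side, chr2:128376001-128377000 was low in all libraries, with most reads at the position 52.460 kb into the gene. Its levels were 15% in OX40L-JAG1 Treg, 27% in OX40L-JAG1 Teff, 31% in PBS Treg and 25.5% in PBS Teff.

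**Figure D2:**
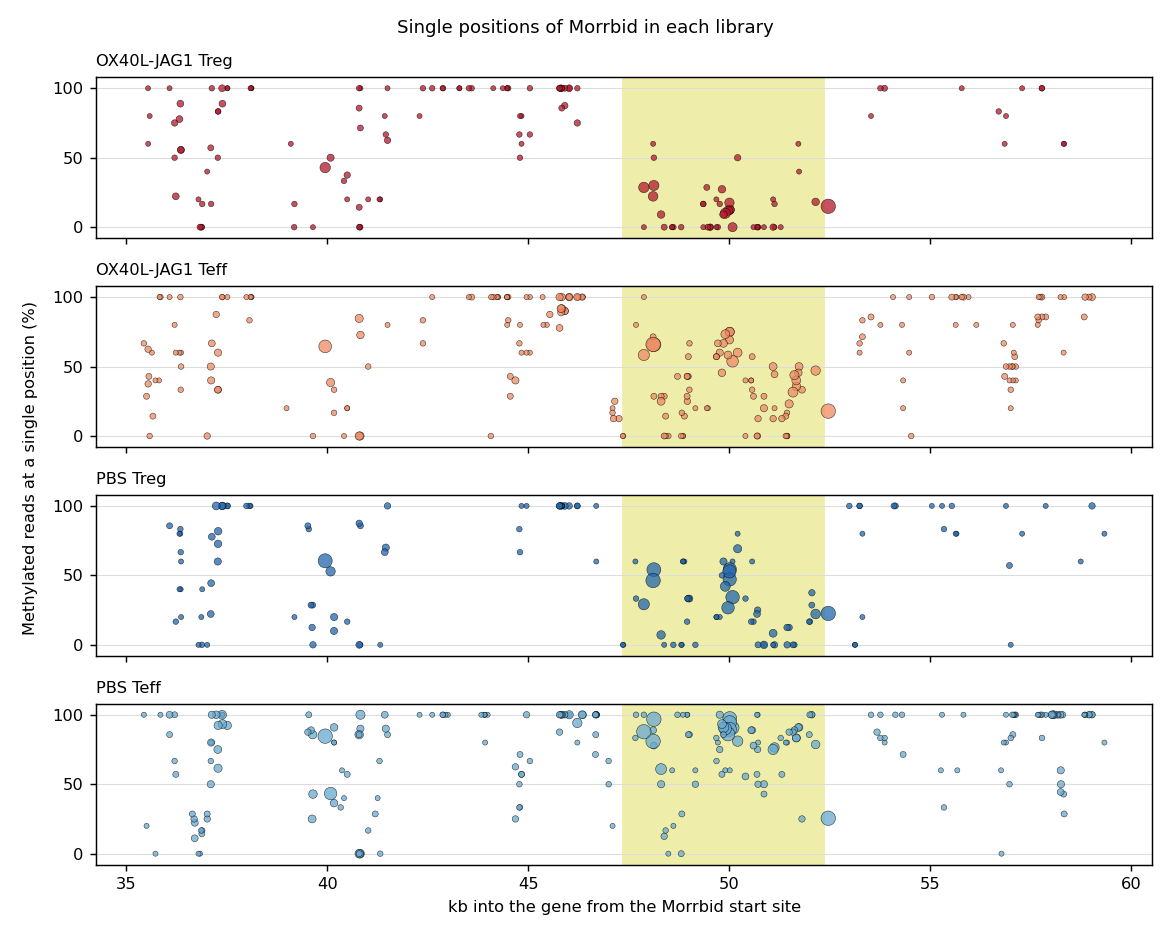
Methylation (%, vertical axis) at each position of Morrbid read at least 5 times in a library, against the distance into the gene from its start site (kb, horizontal axis), with 1 panel per library, larger circles for more reads and the 5-kb stretch shaded. In the shaded stretch circles lie mostly near the bottom in OX40L-JAG1 Treg (14.5% of reads methylated), at middle heights in OX40L-JAG1 Teff (41.9%) and PBS Treg (33.1%) and near the top in PBS Teff (80.6%). Some PBS Teff circles are low, such as those at 48.803 and 48.482 kb, both at 0%.

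A further Morrbid window, chr2:128392001-128393000, had 61.9% in OX40L-JAG1 Treg (42 reads), 41.5% in OX40L-JAG1 Teff (65 reads), 56.2% in PBS Treg (64 reads) and 72.0% in PBS Teff (75 reads). Over these 7 kept positions OX40L-JAG1 Teff was the lowest library, -30.5 points from PBS Teff (-44.7 to -14.1, called), while OX40L-JAG1 Treg differed from PBS Treg by 5.65 points (-13.3 to 23.5). The difference of the 2 treatment differences was 36.1 points and was not called. At the 8 positions both Teff libraries cover, their difference was -29.0 points. Over each library's own positions the order was not the same. The levels were 41.8% in OX40L-JAG1 Treg, 46.7% in OX40L-JAG1 Teff, 51.7% in PBS Treg and 51.7% in PBS Teff. With the pairwise positions, 2 more windows were called lower in OX40L-JAG1 Teff than in PBS Teff, chr2:128372001-128373000 (-43.7 points) and chr2:128426001-128427000 (-20.5 points), and chr2:128389001-128390000 was called lower for PBS Treg minus PBS Teff (-24.6 points). The other 7 windows read in all 4 libraries were not called. The window 89.9 kb into the gene, chr2:128339001-128340000, was low in all libraries, with 10.5% in OX40L-JAG1 Treg, 17.7% in OX40L-JAG1 Teff, 12% in PBS Treg and 4.95% in PBS Teff. The window 40.9 kb in lay at 36.4 to 48.5%, and the other 5 lay at 78.5 to 100%. Pooled over all 162 kept positions, the Morrbid locus had 66.3% in OX40L-JAG1 Treg, 72.0% in OX40L-JAG1 Teff, 69.0% in PBS Treg and 78.5% in PBS Teff.

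Bcl2l11, the gene of Bim, had 2 windows and neither was called. Inside the gene, chr2:128132001-128133000 had 94.1% in OX40L-JAG1 Treg (51 reads), 81.8% in OX40L-JAG1 Teff (55 reads), 93.0% in PBS Treg (57 reads) and 82.7% in PBS Teff (81 reads). Both Treg libraries were above both Teff libraries, by 12.3 points in OX40L-JAG1 mice (-0.54 to 25.0) and 10.3 points in PBS mice (-1.51 to 20.8), intervals that include 0. Just past the end of the gene, chr2:128163001-128164000 had 62.0% in OX40L-JAG1 Treg, 77.6% in OX40L-JAG1 Teff, 70.1% in PBS Treg and 89.2% in PBS Teff, from 79 to 139 reads each. The 4 libraries stood in the same order as at the Morrbid window 49.9 kb into that gene, with smaller steps. Here the intervals of libraries next to each other in this order overlapped. OX40L-JAG1 Treg minus PBS Treg was -8.07 points (-21.6 to 5.49), an interval that includes 0. The step for PBS Treg minus PBS Teff, -19.1 points (-29.2 to -9.08), was the one nearest to the call size and lay below it. Over its 53 kept positions the Bcl2l11 locus had 79.7% in OX40L-JAG1 Treg, 80.4% in OX40L-JAG1 Teff, 75.4% in PBS Treg and 84.4% in PBS Teff. For the locus, PBS Treg minus PBS Teff was -9.02 points with reads pooled and -0.70 as the mean of single positions. OX40L-JAG1 Treg minus PBS Treg likewise went from 4.33 to -1.18 points.

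Between Bcl2l11 and Morrbid the gene bounds leave 136 kb, which hold the predicted gene Gm14009. The 16 windows there that belong to neither gene had 0 calls in all 4 comparisons. Of all windows, 0.0588 to 0.469% were called lower and 0.0194 to 0.115% higher, so 0 calls in 16 windows says little. The median differences of the 16 windows were -3.13 points for OX40L-JAG1 Treg minus PBS Treg, -0.72 for OX40L-JAG1 Teff minus PBS Teff, 2.0 for OX40L-JAG1 Treg minus OX40L-JAG1 Teff and 0.53 for PBS Treg minus PBS Teff. Single windows ran from -10.4 to 7.35, -16.9 to 13.4, -3.06 to 12.7 and -8.50 to 22.0 points in the same order.

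Bcl2, which encodes the prosurvival protein BCL-2, had 12 windows, which cover a small part of this long gene, and 9 of them were at 80% or more in all 4 libraries. Other stretches, read in fewer libraries, were low. With pairwise positions, chr1:106566001-106567000 had 12.1% of 33 reads in OX40L-JAG1 Teff and 12.8% of 47 reads in PBS Teff. The called window of Bcl2, chr1:106560001-106561000, lies 153.8 kb from the start site near the far end of the gene. It had 62.9% in OX40L-JAG1 Treg (35 reads), 59.7% in OX40L-JAG1 Teff (67 reads), 86.5% in PBS Treg (52 reads) and 89.2% in PBS Teff (65 reads). Both OX40L-JAG1 libraries were lower than both PBS libraries, and the intervals of Treg and Teff overlapped within each treatment. The difference was -29.5 points for OX40L-JAG1 Teff minus PBS Teff (-42.7 to -14.8, called) and -23.7 points for OX40L-JAG1 Treg minus PBS Treg (-41.5 to -5.38, not called). Of the 6 positions, 5 were lower and 1 higher in OX40L-JAG1 Teff than in PBS Teff. For OX40L-JAG1 Treg against PBS Treg, 3 were lower and 1 higher. Treg minus Teff was 3.16 points in OX40L-JAG1 mice (-16.6 to 21.6) and -2.69 points in PBS mice (-15.7 to 9.25).

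With pairwise positions a second Bcl2 window was called, chr1:106678001-106679000, 35.8 kb from the start site. Over the positions read in both Teff libraries, OX40L-JAG1 Teff had 23.1% of 39 reads and PBS Teff had 73.2% of 41 reads, a difference of -50.1 points (-65.4 to -28.6). Over each library's own positions it had 6.25% of 16 reads in OX40L-JAG1 Treg, 22.0% of 50 in OX40L-JAG1 Teff, 26.1% of 23 in PBS Treg and 73.2% of 41 in PBS Teff, so PBS Teff alone was high. The windows on both sides were between 75.6 and 97.4% in all libraries. Pooled over 253 positions, the Bcl2 locus differed little between libraries, with 86.2% in OX40L-JAG1 Treg, 85.1% in OX40L-JAG1 Teff, 85.6% in PBS Treg and 84.5% in PBS Teff.

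Bcl2l1, the gene of the prosurvival protein BCL-XL, gave the call in the opposite direction. Window chr2:152774001-152775000, 54.0 kb from the nearest start site, had 88.5% in OX40L-JAG1 Treg (52 reads), 95.8% in OX40L-JAG1 Teff (48 reads), 89.5% in PBS Treg (57 reads) and 67.5% in PBS Teff (40 reads). PBS Teff was the low library, and OX40L-JAG1 Teff minus PBS Teff was 28.3 points (12.5 to 44.1). With the 8 pairwise positions the difference was 17.5 points (4.76 to 30.5) and not called. A strand could be assigned only where both cytosines of a CpG pair were listed. The difference was 0.00 points over 2 positions so assigned to the plus strand and 3.97 over 3 assigned to the minus strand. Most of the difference in this window came from position 152774269, with 84.6% of 13 reads in OX40L-JAG1 Teff and 25.0% of 12 in PBS Teff. OX40L-JAG1 Treg had 58.3% of 12 reads and PBS Treg 45.5% of 11 reads at that position. The other 4 windows of Bcl2l1 were not called and lay between 68.6 and 98.6%.

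Mcl1, whose product MCL-1 is needed for the survival of T cells, had few methylated reads downstream of its start site. Over each library's own positions, the window chr3:95659001-95660000 had 0% in OX40L-JAG1 Treg (27 reads), 0% in OX40L-JAG1 Teff (72 reads), 0% in PBS Treg (68 reads) and 0.82% in PBS Teff (122 reads). In chr3:95662001-95663000, at the end of the gene, the level was 2.7% in OX40L-JAG1 Treg (37 reads), 1.43% in OX40L-JAG1 Teff (70 reads), 0% in PBS Treg (51 reads) and 12.8% in PBS Teff (47 reads). The window with enough shared positions lies past the gene, chr3:95665001-95666000, with 21.4% in OX40L-JAG1 Treg (42 reads), 44.4% in OX40L-JAG1 Teff (63 reads), 25.8% in PBS Treg (62 reads) and 34.4% in PBS Teff (125 reads). Both Treg libraries were lower than both Teff libraries there, with Treg minus Teff at -23.0 points in OX40L-JAG1 mice (-38.6 to -4.44) and -8.59 points in PBS mice (-21.3 to 5.75), and neither was called. Over its 19 kept positions the locus had 20.7% in OX40L-JAG1 Treg, 28.1% in OX40L-JAG1 Teff, 22.6% in PBS Treg and 37.0% in PBS Teff.

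Fas, the death receptor gene, had a called window just inside the gene. Window chr19:34292001-34293000, 1.8 kb after the start site, had 2.33% in OX40L-JAG1 Treg (86 reads), 26.1% in OX40L-JAG1 Teff (119 reads), 5.56% in PBS Treg (72 reads) and 21.4% in PBS Teff (126 reads). Both Treg libraries were low and both Teff libraries partly methylated, and OX40L-JAG1 and PBS libraries of a cell type had overlapping intervals. Treg minus Teff was -23.7 points in OX40L-JAG1 mice (-32.4 to -14.6, called), lower at all 5 positions, and -15.9 points in PBS mice (-24.5 to -5.81, below the call size), lower at 4 of 5. These 5 positions lie from 1.344 to 1.418 kb after the start site and can share reads, so they are not independent observations. The call in OX40L-JAG1 mice was lost with all read counts divided by 3 and with a call size of 30 points. OX40L-JAG1 minus PBS was -3.23 points in Treg (-11.3 to 3.45) and 4.62 points in Teff (-6.01 to 15.2). In the adjoining window chr19:34293001-34294000, with pairwise positions, OX40L-JAG1 Treg had 51.2% of 43 reads and PBS Treg 16.7% of 42 reads, a difference of 34.5 points (14.4 to 51.0) that was not called. OX40L-JAG1 Teff had 40.4% of 52 reads there and PBS Teff 37% of 81 reads.

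About 2.2 kb before the start site, chr19:34288001-34289000 had 0% in OX40L-JAG1 Treg (30 reads), 27.9% in OX40L-JAG1 Teff (43 reads), 0% in PBS Treg (42 reads) and 5.88% in PBS Teff (51 reads). OX40L-JAG1 Teff was the high library, 22.0 points above PBS Teff (7.01 to 37.3), and this was not called. Further into the gene the pairwise positions gave a second called window, chr19:34295001-34296000, 4.8 kb after the start site. PBS Treg had 25.7% of 70 reads and PBS Teff 91.9% of 74 reads, a difference of -66.2 points (-76 to -52). OX40L-JAG1 Teff had 46.3% of 67 reads and PBS Teff 91.2% of 68 reads, a difference of -44.9 points (-57.3 to -30.0). OX40L-JAG1 Treg shared too few positions with any other library there for a test. Over each library's own positions the levels were 63.6% of 33 reads in OX40L-JAG1 Treg and 56.1% of 98 in OX40L-JAG1 Teff. They were 34.4% of 90 in PBS Treg and 91.9% of 74 in PBS Teff. At some CpG pairs PBS Teff was read on a single cytosine. At 4.863 kb PBS Treg had 0% of 5 reads, and at 4.864 kb, not listed for PBS Teff, it had 71.4% of 7. At 8.8 kb the window chr19:34299001-34300000 was low in every library, with 6.9% in OX40L-JAG1 Treg (232 reads), 3.52% in OX40L-JAG1 Teff (341 reads), 6.8% in PBS Treg (294 reads) and 3.81% in PBS Teff (472 reads). Depth there was far above the genome medians. At 8.412 kb it was 64, 105, 94 and 137 reads in the same order, against medians of 9, 11, 10 and 14. The placement of these reads was not tested. The whole Fas locus hid these local differences, at 65.9% in OX40L-JAG1 Treg, 66.1% in OX40L-JAG1 Teff, 67% in PBS Treg and 65.4% in PBS Teff. Such pooled values depend on the positions kept. PBS Treg minus PBS Teff was 1.52 points for the locus and -2.65 over 209 pairwise positions. It was -15.6 points over the 56 of these assigned to the plus strand and -0.03 over the 72 assigned to the minus strand.

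**Figure D3:**
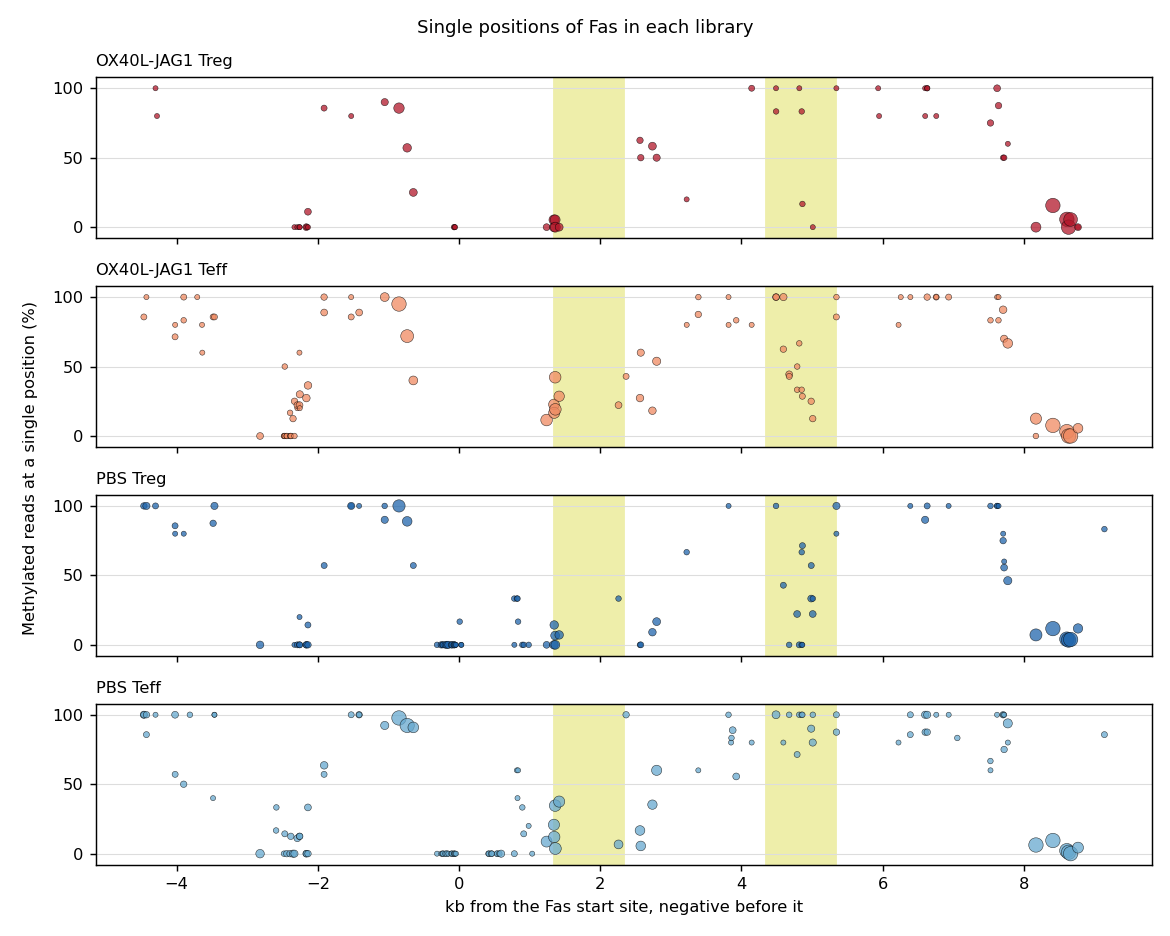
Methylation (%, vertical axis) at each position of Fas read at least 5 times in a library, against the distance from the start site (kb, horizontal axis, negative before it), with 1 panel per library, larger circles for more reads and 2 windows shaded. In the shaded window near 1.8 kb the level was 2.33% in OX40L-JAG1 Treg, 26.1% in OX40L-JAG1 Teff, 5.56% in PBS Treg and 21.4% in PBS Teff, and in the one near 4.8 kb PBS Teff stays near the top.

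Side by side, the Morrbid window 49.9 kb into the gene was lower both in Treg and after OX40L-JAG1. The Bcl2 window 153.8 kb from its start had its lower levels in both OX40L-JAG1 libraries, called in Teff and lower at 3 of 6 positions in Treg. The Fas window at 1.8 kb had its lower levels in both Treg libraries (called in OX40L-JAG1 mice). The test of the difference between the treatment differences in Treg and in Teff called 0 of the 35 windows, where 0.0108% of all windows were called. At an unadjusted p under 0.05, 5 of the 35 passed, where 4.98% of all windows did.

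**Figure D4:**
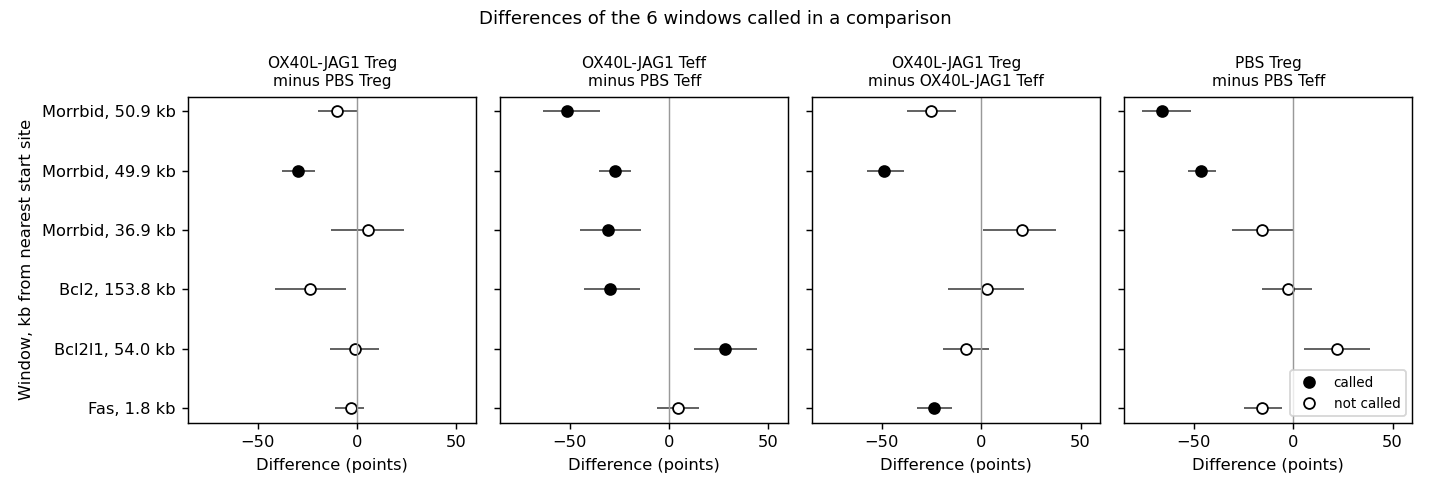
Difference in methylation (points, horizontal axis) with its 95% Newcombe interval for the 6 windows called in any comparison, with 1 panel per comparison and filled circles where the window was called. The Morrbid window at 49.9 kb is filled in all 4 panels, from -27.2 to -48.9 points, and the Bcl2l1 window is the one filled to the right of 0, at 28.3 points.

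The wider apoptosis pathway was read from a list of 37 genes, namely further BCL-2 family inhibitors, pore formers, BH3-only proteins, death receptors with their adaptors, caspases, inhibitor of apoptosis proteins and the factors Trp53 and Foxo3. All 37 had kept positions and 34 had windows, 134 in all. Of the 37, 1 gene held a called window for OX40L-JAG1 Treg minus PBS Treg, where 0.703% of protein-coding genes held a lower and 0.265% a higher one. For OX40L-JAG1 Teff minus PBS Teff it was 1 gene, against 3.79% lower and 1.13% higher. No gene of the list held one for Treg minus Teff, either in OX40L-JAG1 mice (0.606% lower and 0.655% higher among protein-coding genes) or in PBS mice (1.87% lower and 1.34% higher). The median window difference of the list was -0.94, -0.57, -0.11 and -0.36 points in that order. The gene was Bcl2a1d, an A1 inhibitor of apoptosis of the BCL-2 family. Its window chr9:88726001-88727000 had 56.9% in OX40L-JAG1 Treg (72 reads), 47.8% in OX40L-JAG1 Teff (69 reads), 90.6% in PBS Treg (53 reads) and 83.8% in PBS Teff (68 reads). The window was lower in the OX40L-JAG1 library in Treg (OX40L-JAG1 minus PBS, -33.6 points, interval -46.3 to -18.3, adjusted p = 0.0244) and in Teff (-36 points, interval -49.3 to -20.4, adjusted p = 0.00206), by Fisher's exact test between libraries with Benjamini-Hochberg adjustment. The A1 genes Bcl2a1a, Bcl2a1b and Bcl2a1d are near-identical copies, so the placement of these reads is uncertain. Both calls were lost with all read counts divided by 3.

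The windows most like the Morrbid window 49.9 kb into the gene were found by the root mean square distance of their levels in the 4 libraries, among 314516 windows. Predicted gene models were left out in naming genes. The 5 nearest other genes were 5031425E22Rik at 6.22 points, Tank at 6.68 points, Tmc8 at 7.13 points, and Svop and Usp30, which share a window, at 7.14 points. At Tank the levels were 13.9% in OX40L-JAG1 Treg, 56.2% in OX40L-JAG1 Teff, 54.4% in PBS Treg and 85.2% in PBS Teff. In all, 17 windows lay within 10 points of the Morrbid window, and the likeness rests on 4 values that share their libraries. A range over the 4 libraries as wide as that of the Morrbid window, 76.1 points, was found in 11 windows, that window included.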

How the data were processed

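The deposited table gives, per the file headers, the count of reads and the count of methylated reads at each cytosine for 4 libraries. It also gives a level headed as a percentage but deposited as a fraction from 0 to 1, equal to methylated over total reads. Trimmomatic, Bismark and mm10 are named in the submitters' processing notes, with versions and duplicate removal not given in the sources used here. Every nonzero count was at least 5. Listed positions are CpG cytosines in 233158 of 233192 rows that lie in RefSeq promoters.

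Counts were summed in fixed windows of 1 kb with at least 5 positions that had 5 or more reads in all 4 libraries, without mitochondria. Libraries were compared in pairs by Fisher's exact test, adjusted over 314517 windows, and the interaction by a Wald test with 0.5 added to each cell. Wilson and Newcombe 95% intervals cover counting error only. Reads are given for the windows the results turn on. Members, lists and alternatives were chosen with earlier results of these data known. The genes named are the 6 members, with each called window, any gene of the wider list with a called window, and, predicted gene models left out, the 5 genes nearest in pattern to Morrbid. The 5-kb Morrbid stretch, the second Bcl2 and Fas windows and the Mcl1 body were chosen after their values were seen. Alternatives changed the read minimum, the positions kept, the window grid, the strands, the independence of reads, the centring, the call size and the flank. Strand was assigned only where both cytosines of a CpG pair were listed, so values of a strand leave out all other positions. Python 3.11.15, numpy 2.4.6, scipy 1.17.1 and pandas 2.3.3 were used, and the tests were tried on simulated data. Exons and introns were not told apart because the RefSeq tables used here give gene bounds and promoter sequences but no exons. For 1 marker gene the result is not reported here.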

Additional observations from a re-analysis of the deposited data

How the results depend on the processing

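The count of windows called at the 6 genes was 1 for OX40L-JAG1 Treg minus PBS Treg, 5 for OX40L-JAG1 Teff minus PBS Teff, 2 for OX40L-JAG1 Treg minus OX40L-JAG1 Teff and 2 for PBS Treg minus PBS Teff. A minimum of 10 reads left 10 windows, with 1 call for OX40L-JAG1 Teff minus PBS Teff and 1 for PBS Treg minus PBS Teff. Positions read in the 2 libraries compared gave 11 and 7 calls in the same comparisons. Windows of 3 or more positions gave 2 calls for OX40L-JAG1 Treg minus PBS Treg, and merged strands gave 4 for PBS Treg minus PBS Teff. With read counts divided by 3, the calls were 0 for OX40L-JAG1 Treg minus PBS Treg, 0 for OX40L-JAG1 Teff minus PBS Teff and 1 for OX40L-JAG1 Treg minus OX40L-JAG1 Teff, and with a call size of 30 points they were 0, 2 and 1. Counts with the grid shifted by 500 bp, differences centred on the median, a call size of 10 points and no flank stayed within 1.5 times the counts above.

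For the wider list, OX40L-JAG1 Teff minus PBS Teff gave 0 genes at 10 reads, 4 with pairwise positions, 2 with merged strands and 0 with counts divided by 3. OX40L-JAG1 Treg minus PBS Treg gave 0 with counts divided by 3, OX40L-JAG1 Treg minus OX40L-JAG1 Teff gave 1 with pairwise positions, and PBS Treg minus PBS Teff gave 1 with pairwise positions and 1 with the shifted grid. The share of all protein-coding genes with a called window was not computed under these settings, so nothing is read from these gene counts. Single positions called for OX40L-JAG1 Teff minus PBS Teff numbered 1 at 10 reads and 1 with merged strands, against 0. The cause of these shifts was not tested, beyond the smaller or larger number of windows tested.

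The Morrbid window 49.9 kb into the gene had negative differences in all settings run for it, between -24.4 and -33.5 points for the treatment comparisons and between -44.5 and -55.7 points for Treg minus Teff, but lost both treatment calls with counts divided by 3 and with a call size of 30 points. Its minus strand had too few reads to compare, with 70% of 10 reads in PBS Treg and 68.8% of 32 in PBS Teff. The Morrbid window next to it, 50.9 kb into the gene, gave -31.5 points over 3 positions assigned to the minus strand for OX40L-JAG1 Teff minus PBS Teff, against -51.1. The Bcl2l1 window gave 59.6 points at 10 reads, from 1 position, and 17.5 points with pairwise positions. It gave 0.00 points over 2 positions assigned to the plus strand and 3.97 over 3 assigned to the minus strand. No paired analysis was possible because each group has 1 library. Depth limits comparisons of all 4 libraries to 10.0% of the listed positions, pairwise values rest on positions that other libraries may not cover, and differences between animals could not be seen.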
